A study of Homo sapiens with 6 samples.

Results

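Cholesterol synthesis in NCI-N87 cells was followed through 8 protein-coding genes, SREBF2, INSIG1, HMGCS1, IDI1, FDFT1, SQLE, LSS and DHCR7, taken by gene symbol from a table of 58735 genes, of which 19951 are annotated as protein-coding. All 8 symbols matched 1 row each. NCI-N87 cells are a long-used line from a gastric carcinoma, and RNA was sequenced from 3 samples of cells carrying the empty pSIH-H1-puro lentiviral vector (named shNC in the sample labels and shCtrl in the study) and from 3 samples carrying the same vector with 1 shRNA against SCAMP1 (named shScamp1 and shS1#1, respectively). Both groups had been exposed to lentivirus with polybrene for 24 h, were kept as stable populations, not clones, with puromycin at 2 μg/ml, and were harvested at about 80% confluence. SCAMP1 encodes a membrane protein of post-Golgi vesicles. The labels call the samples biological replicates, but separate infections are not described, so the p-values measure the spread between these samples only.

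Cholesterol is made from acetyl-CoA through the mevalonate pathway, in which mevalonate is turned into isoprenoid units, these are joined into squalene, and squalene is closed into a ring and trimmed to cholesterol. The pathway is controlled mainly at transcription. SREBP2, the product of SREBF2, is a transcription factor made as a precursor in the membrane of the endoplasmic reticulum, where INSIG1 retains it together with its escort SCAP while sterol is plentiful. When membrane sterol falls, the precursor travels to the Golgi, is cut there by 2 proteases, and its released part switches on the genes of nearly every enzyme of the pathway, and also INSIG1 and SREBF2 itself. The mRNA levels measured here do not report on the cleavage of the protein.

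The promoters are shown because this control acts through short DNA elements at the transcription start, a sterol regulatory element bound by SREBP and a neighbouring CCAAT box bound by NF-Y. The windows of the regulator SREBF2, the retention factor INSIG1 and the early enzyme HMGCS1 are given. Windows of 300 bases, from 250 before to 50 after a transcription start, were taken from RefSeq on GRCh38.p14, which gave 10 windows for 6 of the 8 genes and none for FDFT1 and SQLE. Capitals mark the sterol regulatory element (TCACNCCAC) and the CCAAT box, the latter read as ATTGG where it lies on the opposite strand. The windows lie at chr22:41832855-41833154 on the plus strand for SREBF2, at chr5:43313363-43313662 on the minus strand for HMGCS1 and at chr7:155297628-155297927 on the plus strand for INSIG1.
SREBF2: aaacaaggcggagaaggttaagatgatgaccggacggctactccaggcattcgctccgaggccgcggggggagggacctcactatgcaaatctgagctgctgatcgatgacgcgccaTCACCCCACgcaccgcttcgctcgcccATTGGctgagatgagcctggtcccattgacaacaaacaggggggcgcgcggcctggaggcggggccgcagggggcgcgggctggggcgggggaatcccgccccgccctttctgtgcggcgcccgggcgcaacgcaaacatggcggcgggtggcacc
HMGCS1: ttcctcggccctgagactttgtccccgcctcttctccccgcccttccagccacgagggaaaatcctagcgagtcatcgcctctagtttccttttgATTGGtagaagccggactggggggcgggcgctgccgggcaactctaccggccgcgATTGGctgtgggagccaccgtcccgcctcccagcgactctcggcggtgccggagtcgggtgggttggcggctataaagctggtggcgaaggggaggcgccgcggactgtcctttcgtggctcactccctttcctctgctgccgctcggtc
INSIG1: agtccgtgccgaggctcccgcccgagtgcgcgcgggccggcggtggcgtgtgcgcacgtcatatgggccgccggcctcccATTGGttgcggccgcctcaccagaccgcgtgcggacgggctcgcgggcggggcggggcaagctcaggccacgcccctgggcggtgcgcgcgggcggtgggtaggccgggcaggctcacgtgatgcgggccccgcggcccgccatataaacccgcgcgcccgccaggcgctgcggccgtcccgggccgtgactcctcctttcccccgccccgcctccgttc

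The sterol regulatory element was present in 1 of the 10 windows, that of SREBF2, as TCACCCCAC starting at position -133 from the transcription start. Its core, CACCCCAC, lies inside the same match at -132, so that both count the same bases. A CCAAT box follows on the opposite strand at -106. Searched on both strands, TCACNCCAC was found in 1.13% and CACCCCAC in 2.79% of all 35116 RefSeq windows of this length. A CCAAT box was found in 7 of the 10 windows, with at least 1 such window for each of the 6 genes, and in 34.6% of all windows. HMGCS1 carried a pair of them in the window printed, at -155 and -100, and INSIG1 carried 1 at -170. These matches describe the letters of the windows, and only these exact patterns were searched. A window without a match says nothing about binding of the factor, in the window or elsewhere.

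The FPKM values (fragments per length of gene and per depth of library, as deposited by the authors) rest on 14311769 to 15988700 reads on genes per library. SCAMP1, the targeted gene, had a mean of 12.1 ± 0.562 FPKM (SD, n = 3) in shNC cells and 1.69 ± 0.311 FPKM (SD, n = 3) in shScamp1 cells, lower in the group labelled as its knockdown. All 8 markers of a gastric epithelial line were present, at 8.19 to 3129 FPKM. Their summed level was 5578 to 5863 FPKM in shNC and 9436 to 10452 FPKM in shScamp1 libraries. Of the 8, 6 passed the test between the groups, beside 14.0% of all genes tested. The 9 markers of other cell types were between 0 and 0.773 FPKM, with COL1A2 listed at 0 in all 6 libraries, and their summed level was 0.824 to 1.2 FPKM in shNC and 1.21 to 1.40 FPKM in shScamp1 libraries. One library stood apart: mitochondrial genes took 9.21% of the reads of shScamp1 replicate 2, against 6.09% to 6.78% in the other 5 libraries. Values without it are therefore given below.

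The 8 genes were well expressed, each from at least 479 reads in every library. In shNC cells, SREBF2, FDFT1 and SQLE led at 70.0 ± 1.96, 69.1 ± 1.59 and 68.9 ± 0.568 FPKM (SD, n = 3), and each overlapped its neighbour in this order. DHCR7, HMGCS1, IDI1, LSS and INSIG1 followed at 62.4 ± 2.08, 39.7 ± 2.18, 24.7 ± 0.699, 12.3 ± 0.455 and 11.4 ± 0.367 FPKM, with no overlap between neighbours. The order of the means and the pattern of overlaps were the same in shScamp1 cells. SREBF2 stood at the 96.9th percentile of the 15556 genes tested by mean FPKM, and INSIG1, the lowest of the 8, at the 72.8th.

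**Figure D1:**
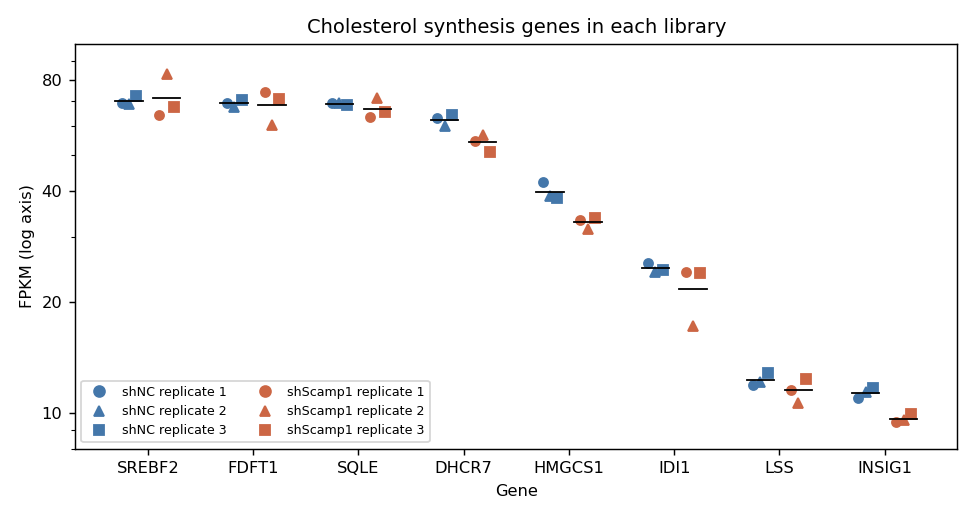
FPKM (log axis) of the 8 genes in each of the 6 libraries, in the order of their shNC means, with shNC in blue, shScamp1 in red, the replicate number as the marker shape and the group mean as a black line. The shScamp1 points of HMGCS1, DHCR7, INSIG1 and, narrowly, IDI1 all lie below the shNC points. Replicate 2 of shScamp1 is the highest of its group for SREBF2 and the lowest for IDI1 and FDFT1.

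Between the groups, none of the 8 genes passed an adjusted p under 0.05 (limma on log2(FPKM + 0.1), Benjamini-Hochberg over 15556 genes), although 7 of 8 had a lower mean log2 level in shScamp1 cells. The median of their log2 fold changes was -0.15, beside -0.02 over all genes tested. Of all genes tested, 14.0% passed that threshold, 8.82% as higher and 5.17% as lower in shScamp1 cells, and 3.16% passed it with an absolute log2 fold change above 1. HMGCS1, INSIG1 and DHCR7, 3 of the 8, had an unadjusted p under 0.05, compared with 30.7% of all genes. Voom on recovered reads also gave 0 calls at the adjusted threshold, with HMGCS1 at an adjusted p of 0.0501. Some other settings of pseudocount, scaling or filter called 1 or 2 of the 8. The FPKM of 4 of the 8 did not overlap between the groups, all lower in shScamp1, where 41.4% of all genes did not overlap in either direction and 21.0% did not overlap and were lower. Among these 4, IDI1 was separated only narrowly, with 24.06 FPKM in its highest shScamp1 and 24.09 FPKM in its lowest shNC library. The widest 95% confidence interval of a log2 fold change among the 8, that of IDI1, ran from -0.54 to 0.14. In bulk RNA, less RNA per cell and fewer cells that express a gene cannot be told apart.

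HMGCS1 (ENSG00000112972, chromosome 5 from 43289395 to 43313512, minus strand) encodes the cytosolic HMG-CoA synthase, which supplies the substrate of the rate-limiting step. Its level was 42.2, 38.9 and 38.2 FPKM in the shNC libraries and 33.4, 31.4 and 33.9 FPKM in the shScamp1 libraries. Every shScamp1 library was below every shNC library. The log2 fold change was -0.27 with a standard error (SE) of 0.07, a change of -17.1% (95% confidence interval -26.3% to -6.87%), with an adjusted p of 0.0511. This was the largest difference among the 8 genes and lay just outside the threshold.

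INSIG1 (ENSG00000186480, chromosome 7 from 155297776 to 155310235, plus strand), the retention factor and itself a target of SREBP2, was at 11.0, 11.4 and 11.7 FPKM in shNC and at 9.44, 9.59 and 9.94 FPKM in shScamp1 libraries. The groups did not overlap, and the shScamp1 libraries were closer to each other than the shNC libraries. Its log2 fold change was -0.23 (SE 0.06), a change of -14.9% (95% confidence interval -23.4% to -5.48%), with an adjusted p of 0.0576.

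DHCR7 (ENSG00000172893, chromosome 11 from 71428193 to 71452868, minus strand) encodes 7-dehydrocholesterol reductase, which carries out the last step to cholesterol. It was at 63.0, 60.1 and 64.2 FPKM in shNC and at 54.4, 56.8 and 51.1 FPKM in shScamp1 libraries. Again the groups did not overlap. On the log2 scale the difference was -0.21 (SE 0.07), a change of -13.3% (95% confidence interval -22.8% to -2.73%), and the adjusted p was 0.1003.

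SREBF2 (ENSG00000198911, chromosome 22 from 41833079 to 41907308, plus strand), the regulator itself, was at 69.1, 68.7 and 72.3 FPKM in shNC and at 64.3, 83.1 and 67.4 FPKM in shScamp1 libraries. Replicate 2 of shScamp1 was above all shNC libraries, and the other two were below them. Its log2 fold change was 0.02 (SE 0.11, limma adjusted p = 0.908), which was -0.0043 when each library was scaled to the same FPKM sum and -0.09 without replicate 2. The 95% confidence interval of the change was -15.2% to 21.7%.

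IDI1 (ENSG00000067064, chromosome 10 from 1039152 to 1049170, minus strand) encodes the isomerase that interconverts the isoprenoid units. It was at 25.4, 24.1 and 24.5 FPKM in shNC and at 24.1, 17.2 and 23.9 FPKM in shScamp1 libraries. Replicates 1 and 3 of shScamp1 lay just under the lowest shNC library, and replicate 2 lay far below all others. The estimate was therefore a log2 fold change of -0.20 (SE 0.14, limma adjusted p = 0.378) with replicate 2 and -0.04 (adjusted p = 0.499) without it. With all libraries the 95% confidence interval of the change was -31.0% to 10.00%.

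FDFT1 (ENSG00000079459, chromosome 8), squalene synthase, commits the pathway to sterols. Its level was 69.3, 67.5 and 70.7 FPKM in shNC and 74.0, 60.5 and 70.9 FPKM in shScamp1 libraries, so that the shScamp1 libraries lay on both sides of the shNC range. The log2 fold change was -0.02 (SE 0.09, limma adjusted p = 0.910), and 0.07 without replicate 2. The 95% confidence interval of the change from all libraries was -15.2% to 14.9%.

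SQLE (ENSG00000104549, chromosome 8), squalene epoxidase, adds the oxygen needed for ring closure and is another control point of the pathway. It was at 69.2, 69.1 and 68.2 FPKM in shNC, the smallest SD relative to the mean of any of the 8 genes, and at 63.3, 71.2 and 65.5 FPKM in shScamp1 libraries. Replicates 1 and 3 of shScamp1 were below the shNC range and replicate 2 was above it. The log2 fold change was -0.05 (SE 0.07, limma adjusted p = 0.670) with all libraries and -0.10 (adjusted p = 0.0754) without replicate 2. The interval of the change from all libraries was -13.8% to 8.47%.

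LSS (ENSG00000160285, chromosome 21 from 46188141 to 46228824, minus strand), lanosterol synthase, closes the ring. It was at 11.9, 12.1 and 12.8 FPKM in shNC and at 11.5, 10.7 and 12.4 FPKM in shScamp1 libraries, with overlapping groups. A log2 fold change of -0.09 was estimated (SE 0.08, limma adjusted p = 0.454), a change of -6.31% (95% confidence interval -17.8% to 6.75%). Without replicate 2 it was -0.04 (adjusted p = 0.632).

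**Figure D2:**
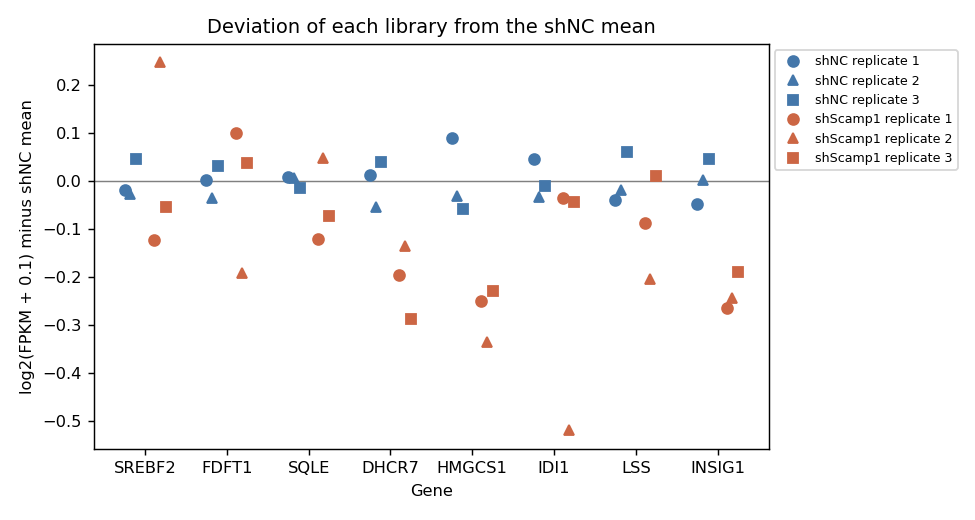
Deviation of each library from the shNC mean on the scale of log2(FPKM + 0.1), for the 8 genes in the order of their shNC level, with shNC in blue, shScamp1 in red and the replicate number as the marker shape. Replicate 2 of shScamp1 spans the range from 0.25 for SREBF2 to -0.52 for IDI1, while replicates 1 and 3 stay between -0.29 and 0.10.

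One library differed most within the shScamp1 group. The SD of the FPKM was larger in shScamp1 than in shNC for 6 of the 8 genes. For 7 of the 8, replicate 2 lay farther from the mean of replicates 1 and 3 than those lay from each other, on the log2 scale, INSIG1 being the exception. It was the highest of its group for SREBF2, SQLE and DHCR7, the lowest for HMGCS1, IDI1, FDFT1 and LSS, and in the middle for INSIG1. The deviation thus had no common sign. It reached 0.34 for SREBF2 and -0.48 for IDI1, where replicates 1 and 3 were 0.07 and 0.01 apart. The part of the higher mitochondrial share in these deviations was not tested.

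Without shScamp1 replicate 2, 3 of the 8 genes passed the test, all as lower in shScamp1 cells, while 13.2% of all genes then passed as lower. HMGCS1 was at a log2 fold change of -0.24 (adjusted p = 0.0233), INSIG1 at -0.23 (adjusted p = 0.0242) and DHCR7 at -0.24 (adjusted p = 0.0151), close to their values with all libraries. The median of the 8 log2 fold changes was then -0.09. This fit compares 3 libraries with 2, and leaving out any of the other 5 libraries in turn gave no call among the 8. Over the 17 alternative settings that give an adjusted p, it (limma) ran from 0.0233 to 0.189 for HMGCS1, from 0.0242 to 0.196 for INSIG1 and from 0.0151 to 0.278 for DHCR7, and each stayed lower in shScamp1 cells.

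**Figure D3:**
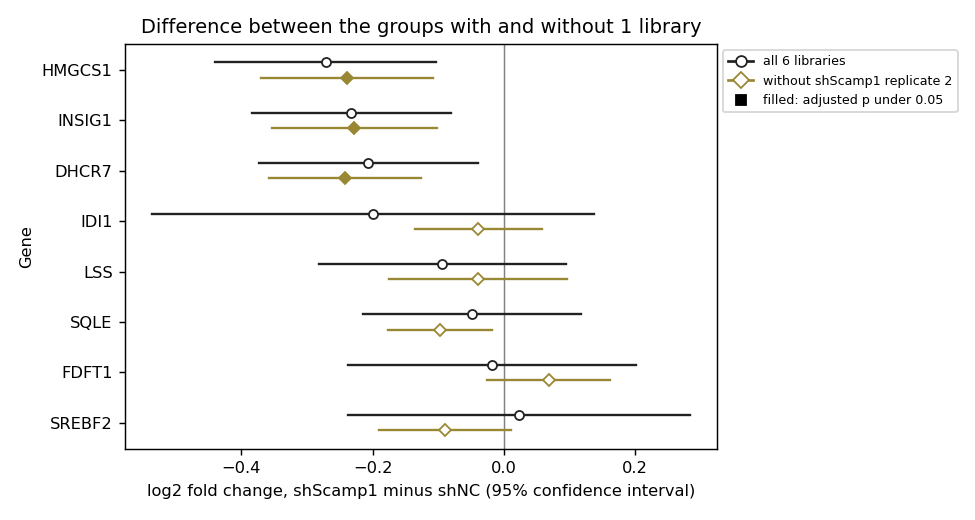
Log2 fold change (shScamp1 minus shNC) of the 8 genes with 95% confidence intervals, from all 6 libraries (black circles) and without shScamp1 replicate 2 (ochre diamonds), filled where the adjusted p was under 0.05. The estimates of HMGCS1, INSIG1 and DHCR7 hardly move while their intervals narrow, IDI1 moves from -0.20 to -0.04, and SREBF2 and FDFT1 change sign.

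Added up, the 8 genes gave 361.2, 351.9 and 362.5 FPKM in shNC and 334.5, 340.5 and 335.0 FPKM in shScamp1 libraries. The groups did not overlap, with means of 358.5 ± 5.81 and 336.7 ± 3.32 FPKM (SD, n = 3). The deviations of replicate 2 in SREBF2 and in IDI1 and FDFT1, which had opposite signs, enter the same sum. It weights abundant genes most, and it is given as a description without a test.

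The other enzymes of the pathway were taken from a hand-written list of 21 synthesis enzymes, which includes 6 of the 8 genes. All 21 were tested, 2 were called, both lower, and 18 of 21 (85.7%) had a negative log2 fold change, against 52.4% of all genes tested. The median was -0.12. Of the 15 enzymes outside the 8 genes, 12 (80%) had a negative log2 fold change and 2 (13.3%) were called. Of these 15, 7 did not overlap between the groups, all lower in shScamp1 cells. LBR, the sterol reductase of the inner nuclear membrane, was at 31.3 ± 0.825 FPKM in shNC and 23.8 ± 0.512 FPKM in shScamp1 cells (SD, n = 3), a log2 fold change of -0.39 (adjusted p = 0.0090). EBP, the isomerase that shifts the ring double bond, went from 24.9 ± 1.23 to 19.0 ± 1.43 FPKM, also -0.39 (adjusted p = 0.0261). These 2 calls are 9.52% of the list, where 14.0% of all genes were called in either direction and 5.17% as lower. Among the 21, 10 did not overlap between the groups, all lower in shScamp1 cells, beside 21.0% of all genes, and 3 of these 10 are HMGCS1, IDI1 and DHCR7. Without shScamp1 replicate 2, 7 enzymes were called lower and 1 higher, with a median of -0.07, while 27.8% of all genes were called in either direction. Their summed level was 663.9 ± 10.2 FPKM in shNC and 611.4 ± 9.17 FPKM in shScamp1 cells.

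Of 14 genes that control SREBP, counting SREBF2 and INSIG1, 1 was called, beside 14.0% of all genes tested. SREBF1, the paralogue of SREBF2 that mainly drives fatty acid synthesis, fell from 35.1 ± 1.38 to 26.8 ± 1.16 FPKM (SD, n = 3), a log2 fold change of -0.39 (SE 0.07, limma adjusted p = 0.0140). INSIG2, the other retention factor, was at 7.74 ± 0.576 and 9.77 ± 0.936 FPKM, with a log2 fold change of 0.33 (adjusted p = 0.0779). Without shScamp1 replicate 2, INSIG2 was called higher, at 0.41 (adjusted p = 0.0118), as INSIG1 was then called lower. INSIG2 also passed with voom (adjusted p = 0.0473) and with scaling to the genes outside the mitochondrial genome (adjusted p = 0.0487), and its adjusted p reached 0.229 in other settings. Of the list, 5 of 14 were lower, with a median of 0.02. Without replicate 2, 4 were called higher and 2 lower, and the median was -0.05, while 27.8% of all genes were called in either direction.

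Genes of sterol uptake and transport changed in both directions. Of 16 listed, 14 were expressed above the filter, 3 were called higher and 3 lower, a share of 42.9%, with a median of 0.00. Among all genes tested, 14.0% were called, 8.82% as higher and 5.17% as lower. GRAMD1A, which moves cholesterol from the plasma membrane to the endoplasmic reticulum, fell from 11.2 ± 0.430 to 7.497 ± 0.748 FPKM (log2 fold change -0.58, adjusted p = 0.0114). Its relative GRAMD1C rose from 1.89 ± 0.179 to 3.16 ± 0.422 FPKM (log2 fold change 0.71, adjusted p = 0.0190).

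In sterol storage and efflux, 7 of 13 listed genes were tested and 1 was called. NCEH1, a hydrolase that frees cholesterol from its esters, was higher in all shScamp1 libraries and rose from 7.72 ± 0.217 to 22.8 ± 3.17 FPKM (SD, n = 3), a log2 fold change of 1.54 (SE 0.11, limma adjusted p = 0.000699). This difference was larger than that of any of the 8 genes or the 21 enzymes. Branches of the pathway to other isoprenoids had 1 call among 12 genes, PDSS1 of ubiquinone synthesis, at -0.32 (adjusted p = 0.0403). Of the lipogenic SREBF1 targets, 9 of 11 were tested and 2 were called in opposite directions, with malic enzyme ME1 at 0.39 (adjusted p = 0.0114) and acetyl-CoA synthetase ACSS2 at -0.35 (adjusted p = 0.0482). Over all lists, 5 of 77 tested genes were called higher and 8 lower, together 16.9% against 14.0% of all genes. Without shScamp1 replicate 2, uptake and transport had 6 calls higher and 4 lower, and storage and efflux 1 higher. The isoprenoid branches then had 2 lower, and the lipogenic targets 1 higher and 5 lower. In that fit, 27.8% of all genes were called in either direction and 13.2% as lower. Of the listed genes named as called, NCEH1 passed under all 18 alternative settings, whereas the other 8 each lost the call under at least 2 of them and PDSS1 and ACSS2 under 10, none with a change of direction.

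**Figure D4:**
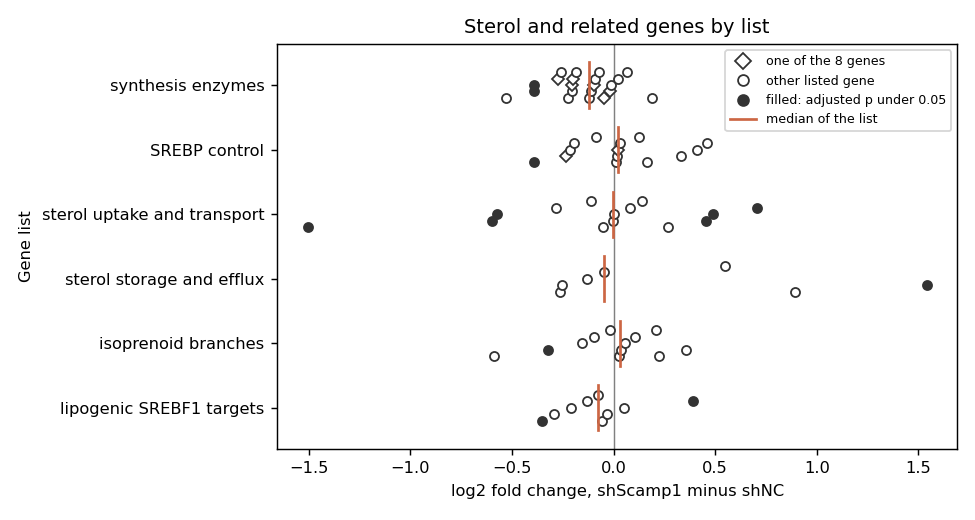
Log2 fold change (shScamp1 minus shNC) of the tested genes in each list, with diamonds for the 8 genes, circles for other listed genes, filled symbols for an adjusted p under 0.05 and a red line for the median of the list. The synthesis enzymes run from -0.53 to 0.19 with a median of -0.12, and the lipogenic targets from -0.35 to 0.39. Uptake and transport genes run from -1.50 to 0.71 around 0.00.

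The genes whose centred profile over the 6 libraries lay nearest to the median profile of the 8, among 6511 protein-coding genes outside the lists with a mean of at least 5 FPKM, were CTBP2, NOB1, PTDSS1, PES1 and AKT2, at Euclidean distances of 0.0574 to 0.0746 in log2 units. CTBP2 is a transcriptional corepressor, PTDSS1 makes phosphatidylserine, NOB1 and PES1 act in ribosome assembly, and AKT2 is a kinase of insulin signalling. Their log2 fold changes lay between -0.16 and -0.12, and none was called (limma adjusted p from 0.138 to 0.231). Both largely follow from choosing these genes by their profile over the same libraries, and are not separate results. Of the 8 genes, INSIG1 lay nearest to the median profile, at 0.126, and SREBF2 farthest, at 0.398.

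Other genes overlapped 6 of the 8 on the genome, 8 overlaps in all, and whether the counting used strand is not stated. The largest, the antisense gene AP002387.1, had on average 2.12% as many reads as DHCR7. AP001469.1 had 1.45% as many as LSS, and SREBF2-AS1 had 1.26% as many as SREBF2. MIR33A, a microRNA within an intron of SREBF2, was listed at 0 in 5 of the 6 libraries.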

How the data were processed

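Total RNA of 3 shNC and 3 shScamp1 samples of NCI-N87 cells was sequenced, and samples were grouped by the titles in their labels. The authors deposited FPKM per gene and library. Per the submitters' processing notes, HISAT2 2.0.5, featureCounts 1.5.0-p3, DESeq2 1.20.0 and hg38 were used. Multiplied by gene length, 100% of the values above 0 were whole multiples of 1 step per library (tolerance 0.01), which gave reads per gene. Depth differed little between libraries. Intervals come from the spread between libraries.

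In R 4.3.3, limma 3.58.1 was run on log2(FPKM + 0.1), with eBayes and a mean-variance trend, over the 15556 genes averaging 0.5 FPKM or more, with Benjamini-Hochberg adjustment. The pseudocount understates changes of low genes. Exact permutation tests of 3 against 3 libraries cannot go below p = 0.1 and were not used for calls. Promoters were read from RefSeq, GRCh38.p14, in Python 3.11.15. Named genes were the 8 genes, SCAMP1, genes called in the lists (up to 6 a list), SREBF1, INSIG2, the 5 genes nearest in profile and overlapping genes; CTBP2 to AKT2 are those 5. The genes and lists were chosen with earlier results of these data known. Not all genes that this rule selects are reported here. Alternatives covered pseudocount, filter, scaling, variance model, voom, biotype, replicate block, unadjusted p and each library left out.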

Additional observations from a re-analysis of the deposited data

How the results depend on the processing

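Counts of calls depended on the setting more than the estimates did. Of the 8 genes, 0 were called in the reported fit, 1 with a pseudocount of 0.01, 1 with upper-quartile scaling, 2 with a mean of at least 2 FPKM, 2 among protein-coding genes only and 3 at an unadjusted p under 0.05. HMGCS1 was the gene called with either of the first 2 settings, and HMGCS1 and INSIG1 with either of the next 2. Leaving out each library in turn gave 0 to 3, with 3 only without shScamp1 replicate 2. The count over all genes, 2177, was 4782 at an unadjusted p and 808 to 4330 with a library left out. It was 831, 808 and 858 without shNC replicates 1, 2 and 3, and 4330 and 1030 without shScamp1 replicates 2 and 3. The count over the pathway lists, 13, was 34 at an unadjusted p and 2 to 33 with a library left out, with 33 without shScamp1 replicate 2. It was not tested why these counts moved with the setting.

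The median log2 fold change of the 8 genes, -0.15, ran from -0.16 to -0.093 with a library left out, and was -0.093 without shScamp1 replicate 2. SREBF2 changed sign to -0.0043 with each library scaled to the same FPKM sum, and ran from -0.089 to 0.096 with a library left out. FDFT1 ran from -0.077 to 0.068 with a library left out. In the 3 cases of a changed sign neither gene was called. INSIG1, HMGCS1, IDI1, SQLE, LSS and DHCR7 stayed lower under all 18 alternatives.

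Replicate numbers are shared by the groups, and deviations of same-numbered libraries correlated at -0.04, 0.03 and 0.07. Those of differently numbered libraries correlated at -0.08 to 0.05. These values show no strong shared deviation, but with 3 libraries per group they cannot settle whether the samples were paired. With the replicate number as a block, 958 genes, 4 pathway genes and 0 of the 8 were called, and the median of the 8 stayed at -0.15. Each of the 8 genes had at least 479 reads in every library, and counting error was not compared with the spread between libraries.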
